A study of Homo sapiens with 20 samples.

Results

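Integrins are the transmembrane receptors through which cells hold on to the extracellular matrix, and 10 of their subunit genes are described here out of 60271 genes in the deposited tables. They were picked by gene symbol alone: the α subunits ITGA2, ITGA3, ITGA5, ITGA6 and ITGAV and the β subunits ITGB1, ITGB4, ITGB5, ITGB6 and ITGB8. Each of the 10 passed edgeR's low-count filter. The study followed gene expression in MDA-MB-468, a human triple-negative breast cancer line of epithelial type with an amplified EGFR gene, while epidermal growth factor (EGF) was used to induce an epithelial-mesenchymal transition (EMT). By the paper's methods, cells went without serum for 24 h before EGF, which was given at 50 ng/mL. The 4 treated groups of 12, 24, 48 or 72 h stand beside the untreated control. The control's time without serum is not given in the sources used here. Per the labels, the groups shared seeding and harvest and differ in when EGF was added. Time in EGF thus cannot be told apart from time in culture before EGF. Whether serum was removed from all groups together or at different times is not given. Each group holds 4 biological replicates of this 1 line, 20 libraries in all, and the line was not authenticated after delivery.

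An integrin is made of 1 α and 1 β chain, and the pair sets what it binds. α6 joined to β4 or β1 and α3 joined to β1 bind laminins of the basement membrane, α2β1 binds collagen, α5β1 binds fibronectin, and αV with β5, β6 or β8 binds vitronectin or the latent form of TGF-β. In epithelia, α6β4 anchors keratin filaments at hemidesmosomes, and αVβ6 and αVβ8 are known for releasing TGF-β from its latent complex, a signal often linked to EMT. A cell can change its set of receptors by changing the amount of 1 partner while the other stays the same, so the subunits are described here both one at a time and as ratios.

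The total per library was between 15611961 and 25856953 counts, and the members had from 39 counts (ITGA5 in a control library) to 10851 (ITGA2 in an EGF 12 h library). Levels are CPM, counts scaled to the library total, after TMM scaling. Changes are log2 fold changes from edgeR's quasi-likelihood test on all 20 libraries, with the standard error (SE), and the adjusted p is Benjamini-Hochberg over the 16522 genes tested with a threshold of 0.05. Of 10 epithelial markers, all were detected in each library, with EPCAM at a mean of 181 CPM in control libraries, and 8 of them rose and 0 fell at 12 h, as did 1 and 3 at 48 h. The mesenchymal marker VIM had a mean of 20.3 CPM in the control and 383 at 24 h, and the 4 of 8 mesenchymal markers that passed the filter were higher at all times. Of the markers of other cell types, 3 of 6 for leukocytes, 2 of 7 for fibroblasts, 2 of 4 for endothelium and 1 of 3 for platelets passed the filter. PTPRC of leukocytes had at most 8 counts in any library, COL1A2 and LUM of fibroblasts at most 1, CDH5 of endothelium at most 3 and GP9 of platelets 0. Some of the others moved with EGF: CD68 of macrophages rose from 1.15 to 26.7 CPM at 72 h and the collagen gene COL1A1 from 6.18 to 13.9 CPM, and both were higher at all 4 times. CD14 fell at 12 h, from 2.98 to 1.11 CPM, and was higher at 48 and 72 h, and PECAM1 fell at 12 h, from 2.31 to 0.374 CPM. The part of these markers in the results was not tested. In such bulk libraries, a change in the number of expressing cells and a change in RNA per cell cannot be told apart. The share of counts from mitochondrial genes was 10.9% in the control and 9.41%, 12.4%, 12.5% and 15% in the EGF groups in order of time, and its part in the results was not tested.

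Most of the integrin subunits rose on EGF-treatment and 2 did not follow. At 12 h, 8 of the 10 genes were higher than in the control and ITGB6 was lower, while ITGAV did not pass the threshold. Among all genes tested, 32.9% were called higher and 36.5% lower at 12 h. At 24 h, 8 members were higher and ITGAV and ITGB6 were lower, beside 29.2% higher and 29.6% lower over all genes. At 48 h, 7 members were higher and none was lower, against 24% and 21.8% of all genes, and ITGAV, ITGB1 and ITGB6 did not pass. At 72 h, 8 members were higher and ITGAV was lower, against 30.6% and 31%. The median log2 fold change of the 10 members was 1.86, 1.69, 0.76 and 1.07 at 12, 24, 48 and 72 h, where the median over all tested genes lay between -0.05 and 0.01. All 4 comparisons use the same 4 control libraries, so they are not independent of each other. With scaling by library size only, 3581 of 11856 called genes were higher at 12 h in place of 5433 of 11465, and 3666 of 10087 at 24 h in place of 4819 of 9717. With upper quartile scaling, it was 4317 of 11616 at 12 h.

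**Figure D1:**
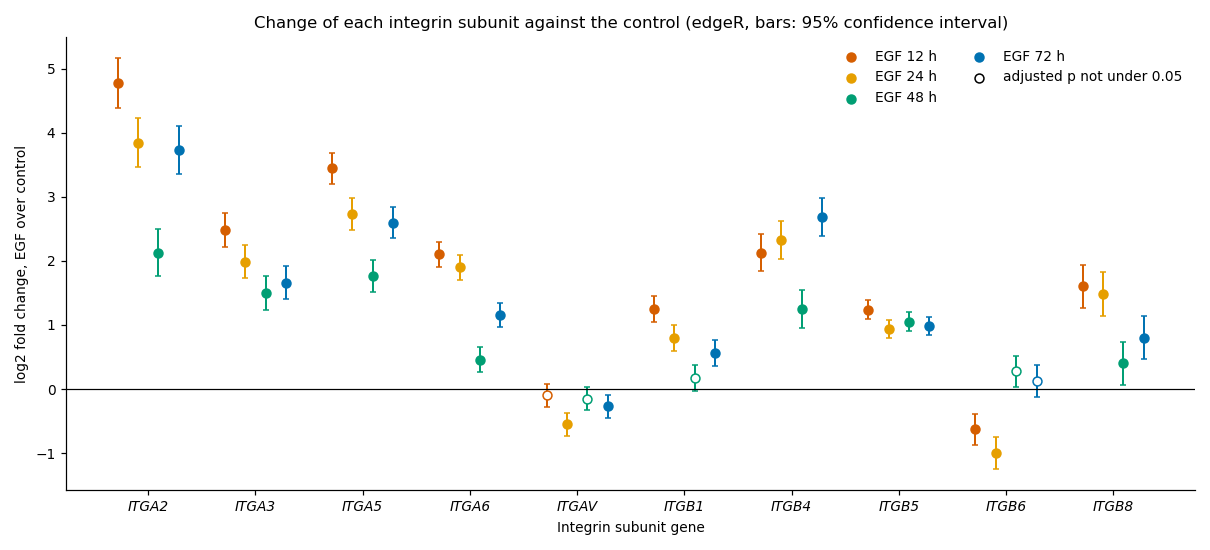
Log2 fold change of each integrin subunit (x axis) over the control (y axis) after 12, 24, 48 and 72 h, with edgeR's 95% confidence interval as bars and open symbols where the adjusted p was not under 0.05. ITGA2 lies highest, at 4.77 at 12 h, and ITGB6 lowest, at -1.0 at 24 h.

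Among the laminin receptors, ITGA6 encodes the α6 chain shared by α6β1 and α6β4 (chr2:172427354-172506282, plus strand, 28 merged exons). Its level was 111, 109, 134 and 113 CPM in the control libraries 1 to 4 and 487, 509, 511 and 509 CPM at 12 h. At 24 h it was 374, 417, 473 and 487 CPM, at 48 h 151, 135, 183 and 174 CPM, and at 72 h 268, 283, 250 and 243 CPM. No EGF library reached down to the control libraries, though the lowest of 48 h came close. ITGA6 had a log2 fold change of 2.11 (SE 0.0954) at 12 h with an edgeR adjusted p of 3.18e-15 and of 1.90 (SE 0.0948) at 24 h with one of 2.60e-14. It was 0.46 (SE 0.0926, edgeR adjusted p = 0.00027) at 48 h and 1.16 (SE 0.0933, edgeR adjusted p = 1.49e-10) at 72 h. The 48 h call was lost when the factors per gene of the deposited normalized values were used, at 0.37 with an edgeR adjusted p of 0.0679. Of the ITGA6 exon bases, 5.37% lie opposite to other genes, of which AC078883.1 had at most 19 counts.

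ITGB4 encodes the β4 chain, which pairs with α6 and reaches the keratin filaments through plectin (chr17:75721328-75757818, plus strand, 41 merged exons). It was at 19.2, 23.8, 13.4 and 18.9 CPM in control libraries, 87.0, 87.4, 73.0 and 82.8 CPM at 12 h, and 73.1, 103, 103 and 99.6 CPM at 24 h. At 48 h the libraries had 48.2, 49.4, 42.4 and 39.8 CPM and at 72 h 145, 107, 114 and 118 CPM. Unlike the other members that rose, its highest group mean was at 72 h, with 121 ± 16.4 CPM (SD, n = 4), and no EGF library overlapped the control. The log2 fold change was 2.13 (SE 0.140, edgeR adjusted p = 6.66e-12) at 12 h and 2.33 (SE 0.141, edgeR adjusted p = 2.52e-12) at 24 h. It stood at 1.25 (SE 0.140, edgeR adjusted p = 1.48e-07) at 48 h and at 2.68 (SE 0.142, edgeR adjusted p = 1.72e-13) at 72 h.

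ITGA3 encodes the α3 chain of α3β1, a receptor for laminins of epithelial basement membranes (chr17:50055968-50090481, plus strand, 24 merged exons). It was at 22, 27.4, 15.2 and 21.4 CPM in control libraries, 129, 120, 110 and 120 CPM at 12 h, and 81.6, 89.0, 88.5 and 82.6 CPM at 24 h. The 48 h libraries had 66.4, 72.2, 54.0 and 51.8 CPM and those of 72 h 73.3, 61.7, 67.0 and 69.7 CPM. The lowest EGF library had 51.8 CPM, above the highest control library. ITGA3 changed by 2.48 on the log2 scale (SE 0.127, edgeR adjusted p = 4.07e-14) at 12 h, and by 1.99, 1.5 and 1.66 at 24, 48 and 72 h with edgeR adjusted p of 3.00e-12, 8.53e-10 and 6.15e-11.

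**Figure D2:**
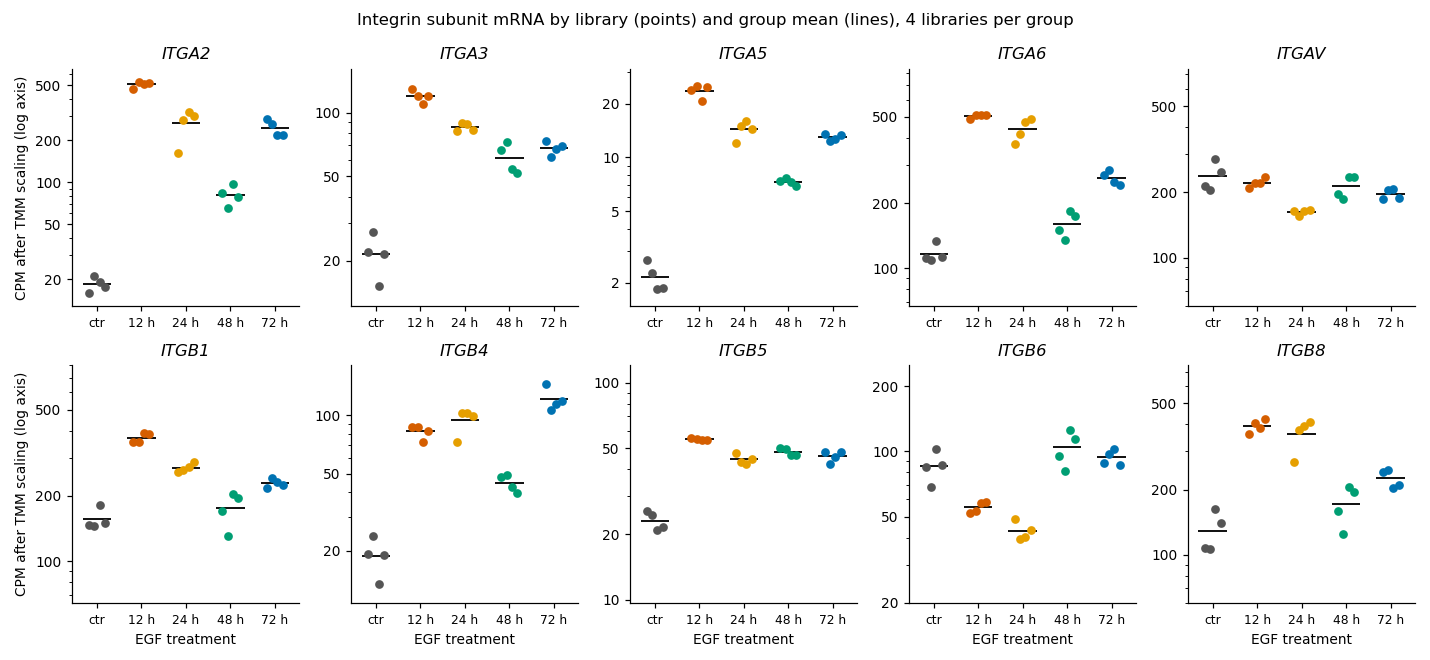
CPM after TMM scaling on a log axis for each of the 10 integrin subunits, by group (ctr, control), with 1 point per library and a line at the mean of 4 libraries. ITGA2 goes from 16 to 21.2 CPM in the control to 471 to 527 CPM at 12 h, whereas ITGB6 falls to 39.5 to 48.7 CPM at 24 h and lies between 81.4 and 126 CPM at 48 h.

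ITGA2, the α2 chain of the collagen receptor α2β1, changed most of all members (chr5:52989326-53094779, plus strand, 30 merged exons). The control libraries had 16, 21.2, 19.1 and 17.7 CPM and the 12 h libraries 471, 527, 514 and 519 CPM. At 24 h it was 162, 281, 323 and 298 CPM, at 48 h 83.1, 65.5, 97.9 and 78.9 CPM, and at 72 h 285, 262, 218 and 218 CPM. Every EGF library was at least 65.5 CPM, and at 24 h replicate 1 was well below the other three. ITGA2 was thus 27.4-fold, 14.3-fold, 4.39-fold and 13.3-fold higher at 12, 24, 48 and 72 h. On the log2 scale these were 4.77 (SE 0.191, edgeR adjusted p = 3.27e-14), 3.84 (SE 0.184, edgeR adjusted p = 8.45e-13), 2.13 (SE 0.176, edgeR adjusted p = 7.08e-09) and 3.73 (SE 0.183, edgeR adjusted p = 1e-12).

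The promoter of ITGA2 is shown since it belongs to the member with the steepest rise, and that of ITGB6 since it belongs to the member with the deepest fall, and both were chosen with these values known. The windows come from a RefSeq table of GRCh38.p14 that starts 250 bases before each gene start, less the bases that lie in annotated exons. The ITGA2 window is chr5:52989102-52989325 on the plus strand, and that of ITGB6 is chr2:160200314-160200522 on the minus strand. Capitals mark the GC box GGGCGG in ITGA2 and, in ITGB6, CACCTG, which is the E-box CAGGTG read on the other strand.
ITGA2: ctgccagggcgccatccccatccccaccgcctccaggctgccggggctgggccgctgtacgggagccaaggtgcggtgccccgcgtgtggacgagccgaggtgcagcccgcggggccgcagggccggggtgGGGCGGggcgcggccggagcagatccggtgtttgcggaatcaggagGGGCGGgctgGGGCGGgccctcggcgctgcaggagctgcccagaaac
ITGB6: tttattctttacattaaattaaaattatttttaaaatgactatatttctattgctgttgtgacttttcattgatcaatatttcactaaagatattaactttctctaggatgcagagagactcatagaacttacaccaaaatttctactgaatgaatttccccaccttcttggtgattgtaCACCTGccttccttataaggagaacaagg

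The pair of promoters differ in base composition: GC made up 76.4% of the 250-base ITGA2 window and 30% of that of ITGB6, where the median of 35116 promoters was 58%. The GC box, the binding sequence of SP1-like factors, occurred on either strand in 42.6% of all promoters. The 8 members with an entry had 13 promoters, of which 7 held the GC box. These belong to 6 genes, ITGA2, ITGA5, ITGA6, ITGB1, ITGB5 and ITGB8. ITGA2 held 4 matches, of which the 3 outside annotated exons are shown. The E-box CAGGTG, which repressors of the SNAI and ZEB families bind, was found in 17.5% of all promoters and in those of ITGA6, ITGB5 and ITGB6, and the match of ITGB6 lies 70 bases before the gene start. The AP-1 motif TGANTCA occurred in 6.57% of all promoters and in 0 of the 13 promoters of members. A match of letters is not a bound site, and the counts say nothing of which factor acts there.

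ITGA5 encodes the α5 chain of the fibronectin receptor α5β1 (chr12:54395261-54419460, minus strand, 24 merged exons). It was at 2.66, 2.27, 1.84 and 1.87 CPM in control libraries, 23.7, 25.1, 20.7 and 24.6 CPM at 12 h, and 12.1, 15.0, 16 and 14.4 CPM at 24 h. The 48 h libraries had 7.43, 7.68, 7.26 and 6.93 CPM and those of 72 h 13.6, 12.3, 12.7 and 13.4 CPM. The order of the EGF groups was that of ITGA2, and no library of 48 h overlapped any other group. ITGA5 changed by 3.45 on the log2 scale at 12 h (SE 0.117, edgeR adjusted p = 1.71e-17) and by 2.73, 1.76 and 2.59 at the later times, with edgeR adjusted p of 1.97e-15, 2.72e-11 and 4.23e-15. Its ligand fibronectin, FN1, rose as well, from 17.8 ± 2.19 to 256 ± 20.6 CPM at 72 h (SD, n = 4).

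ITGB1 encodes β1, the chain with which α2, α3, α5 and α6 pair (chr10:32900319-33005792, minus strand, 30 merged exons). The control libraries had 147, 145, 181 and 150 CPM and the 12 h libraries 353, 355, 392 and 384 CPM. It was 258, 264, 272 and 287 CPM at 24 h, 171, 131, 205 and 196 CPM at 48 h and 218, 243, 232 and 225 CPM at 72 h. At 48 h, 1 library lay below the control libraries, 1 among them and 2 above them, while the libraries of the other times were all above the control. The log2 fold change was 1.25 (SE 0.0998, edgeR adjusted p = 8.75e-11) at 12 h, 0.80 (SE 0.0991, edgeR adjusted p = 2.77e-07) at 24 h and 0.56 (SE 0.0990, edgeR adjusted p = 3.20e-05) at 72 h. At 48 h it was 0.17, with a 95% confidence interval from -0.03 to 0.38 and an edgeR adjusted p of 0.155. ITGB1 did pass at 48 h without control replicate 3 (0.25), without EGF 48 h replicate 2 (0.29) and with the factors per gene (0.54, edgeR adjusted p = 0.0184). Reads may be divided between ITGB1 and its processed pseudogene ITGB1P1, which had 172 to 727 counts beside 2669 to 8037 for ITGB1.

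The αV chain, ITGAV, was the only α subunit among the members that did not rise at any time (chr2:186590065-186680901, plus strand, 31 merged exons). It was at 213, 204, 284 and 248 CPM in control libraries, 209, 221, 221 and 234 CPM at 12 h, and 164, 156, 164 and 166 CPM at 24 h. Later it was 197, 187, 234 and 236 CPM at 48 h and 187, 204, 208 and 188 CPM at 72 h. The 24 h libraries were below all others, while those of 12 h lay within the range of the control. ITGAV fell by 0.55 (SE 0.0883) on the log2 scale at 24 h, with an edgeR adjusted p of 1.04e-05. At 72 h it fell by 0.27 (SE 0.0880, edgeR adjusted p = 0.0101) with 3 of 4 libraries below all controls, and this call was lost without control replicate 3, at -0.17. The difference was -0.10 at 12 h (95% confidence interval -0.28 to 0.08, edgeR adjusted p = 0.305) and -0.15 at 48 h (-0.33 to 0.03, edgeR adjusted p = 0.16). With scaling by library size only, ITGAV was called lower at 12 h too, at -0.39, and with upper quartiles at -0.26. At 48 h it was called lower without control replicate 2, at -0.22.

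The β chains that join αV went separate ways. ITGB5, of the vitronectin receptor αVβ5, rose at each time by 0.94 to 1.24 on the log2 scale (chr3:124761948-124901418, minus strand, 23 merged exons). It was at 25.5, 24.6, 20.9 and 21.6 CPM in control libraries, 55.6, 55.1, 54.3 and 54.3 CPM at 12 h, and 47.5, 43.2, 42.1 and 44.5 CPM at 24 h. The later libraries had 50.0, 49.6, 46.3 and 46.3 CPM at 48 h and 48.0, 42.2, 45.5 and 47.8 CPM at 72 h. All EGF libraries lay above all controls, in a narrow range from 42.1 to 55.6 CPM. Its log2 fold change was 1.24 (SE 0.0708), 0.94, 1.05 and 0.99 at 12, 24, 48 and 72 h, with edgeR adjusted p of 2.06e-13, 5.99e-11, 1.54e-11 and 1.98e-11.

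ITGB8, of the TGF-β-activating receptor αVβ8, had 107, 106, 163 and 140 CPM in the control libraries and 359, 407, 383 and 423 CPM in those of 12 h (chr7:20330702-20415754, plus strand, 14 merged exons). It was 267, 376, 391 and 408 CPM at 24 h, 159, 125, 206 and 194 CPM at 48 h and 241, 247, 203 and 210 CPM at 72 h. The libraries of 12, 24 and 72 h were above all controls, and 2 of 4 were at 48 h. The log2 fold change was 1.61 (SE 0.161, edgeR adjusted p = 3.14e-08) at 12 h, 1.48 (SE 0.161, edgeR adjusted p = 1.65e-07) at 24 h and 0.80 (SE 0.159, edgeR adjusted p = 0.000217) at 72 h. At 48 h it was 0.40 (SE 0.158, edgeR adjusted p = 0.044), a call lost with no filter beyond 1 count and in a fit of only the 8 libraries compared (adjusted p = 0.0932). It was also lost without control replicate 1 (0.32), 2 (0.32) or 4 (0.44), and without EGF 48 h replicate 1 (0.44), 3 (0.30) or 4 (0.34). With the factors per gene the value was 0.69.

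ITGB6, found mainly in epithelia, where αVβ6 activates TGF-β, went the other way (chr2:160099666-160200313, minus strand, 15 merged exons). It was at 84.9, 68.2, 103 and 86.5 CPM in control libraries, 51.9, 53.1, 57.8 and 58.2 CPM at 12 h, and 48.7, 39.5, 40.1 and 43.4 CPM at 24 h. The 48 h libraries had 95.4, 81.4, 126 and 114 CPM and those of 72 h 88.6, 97.4, 103 and 86.2 CPM. All libraries of 12 and 24 h were below all controls, and those of 48 and 72 h overlapped them. ITGB6 fell by 0.63 (SE 0.119, edgeR adjusted p = 5.28e-05) at 12 h and by 1.0 (SE 0.120, edgeR adjusted p = 1.89e-07) at 24 h on the log2 scale. At 48 h the difference was 0.28 (95% confidence interval 0.04 to 0.52, edgeR adjusted p = 0.0519) and at 72 h 0.13 (-0.12 to 0.37, edgeR adjusted p = 0.36). The 48 h value passed the threshold with upper quartile scaling (0.30), with at least 10 counts in every library (0.32), with the factors per gene (0.35), without control replicate 3 (0.39) and without EGF 48 h replicate 1 (0.32) or 2 (0.39). Of the ITGB6 exon bases, 20.6% lie in exons of AC092153.1 on the same strand, which had 96 to 480 counts beside 625 to 3317 for ITGB6.

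A pair of libraries deviated in a way that ran across the members. Control replicate 3 had the highest control level of ITGA6, ITGAV, ITGB1, ITGB6 and ITGB8 and the lowest of ITGA3, ITGA5, ITGB4 and ITGB5. EGF 48 h replicate 2 had the lowest 48 h level of ITGA2, ITGA6, ITGAV, ITGB1, ITGB6 and ITGB8 and the highest of ITGA3, ITGA5 and ITGB4. The cause was not tested.

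From one time to the next, the members went down, down again and partly up. Between 12 and 24 h, 7 of the 10 were lower and none was higher, when 25.9% of all genes were called lower and 27.9% higher. The 3 that did not pass were ITGA6 at -0.20 (95% confidence interval -0.39 to -0.01), ITGB4 at 0.19 (-0.08 to 0.46) and ITGB8 at -0.13 (-0.45 to 0.20). ITGA2 had the largest fall, by 0.93 (SE 0.160, edgeR adjusted p = 7.39e-05). With scaling by library size only, ITGB5 (-0.16) and ITGB6 (-0.22) no longer passed and ITGB4 did (0.33), and ITGB6 was lost with upper quartiles too (-0.25). ITGA6 passed with DESeq2's size factors (-0.22), with no filter beyond 1 count (-0.24), in a fit of the 8 libraries (-0.18), and without EGF 24 h replicate 3 (-0.24) or 4 (-0.26). The fall of ITGB5 was -0.67 with the factors per gene.

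Between 24 and 48 h, 7 members fell and ITGAV and ITGB6 rose, against 24.3% lower and 25.9% higher over all genes. The log2 fold changes were -1.71 for ITGA2, -1.44 for ITGA6, -1.08 for ITGB8, -1.07 for ITGB4, -0.97 for ITGA5, -0.62 for ITGB1 and -0.49 for ITGA3. ITGB6 rose by 1.28 (SE 0.121, edgeR adjusted p = 9.88e-09) and ITGAV by 0.40 (SE 0.0883, edgeR adjusted p = 0.000655). ITGB5 was at 0.11 (95% confidence interval -0.03 to 0.26), and passed with library size only (0.27) or upper quartiles (0.18). With the factors per gene, the fall of ITGA3 was -0.91. The members that had gone up with EGF thus went down in this interval and both that had gone down went up, ITGB5 apart.

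Between 48 and 72 h, 5 members rose and none fell, against 17.9% higher and 17.9% lower over all genes. They were ITGA2 (1.59), ITGB4 (1.43), ITGA5 (0.83), ITGA6 (0.70) and ITGB1 (0.39). Of the others, ITGB8 was at 0.40 (95% confidence interval 0.07 to 0.73, edgeR adjusted p = 0.056), ITGA3 at 0.16 (-0.09 to 0.40), ITGB5 at -0.07 (-0.21 to 0.08), ITGAV at -0.12 (-0.30 to 0.06) and ITGB6 at -0.16 (-0.40 to 0.09). ITGB8 passed with DESeq2's size factors (0.42) or Wald test (0.42), with at least 10 counts in every library (0.42), in a fit of the 8 libraries (0.40), and without EGF 48 h replicate 3 (0.50) or 4 (0.47). With the factors per gene, ITGB1 no longer passed in the intervals to 48 h (-0.40) and to 72 h (0.12), nor ITGA3 in that to 24 h (-0.11), and ITGA3 rose to 72 h by 0.74. The split of all called genes moved with scaling by library size only, to 6107 higher of 8903 between 12 and 24 h (4608 of 8879 with TMM), 5948 of 8285 between 24 and 48 h (4272 of 8292) and 2132 of 6307 between 48 and 72 h (2951 of 5906). With upper quartile scaling, it was 5913 of 8948 between 12 and 24 h.

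To compare genes with each other, CPM was divided by the length of the merged exons in kb. In the control, ITGAV (28.9 ± 4.45 CPM per kb, SD, n = 4) and ITGB1 (25.9 ± 2.81) stood first, and their libraries overlapped. ITGB6 (18.3 ± 3.07) and ITGA6 (17.9 ± 1.78) came next and overlapped each other, then ITGB8 (8.52 ± 1.81). ITGB5 (3.59), ITGB4 (2.79), ITGA2 (2.34) and ITGA3 (2.19) followed, each overlapping its neighbour, and ITGA5 was last at 0.285 ± 0.0512 CPM per kb. At 12 h ITGA6 was first (77.1 ± 1.72 CPM per kb), apart from ITGA2 (64.2 ± 3.17), which overlapped with ITGB1 (61.7 ± 3.28). ITGAV (26.9) and ITGB8 (26.0) came next and overlapped, and so did ITGA3 (12.2), ITGB4 (12.2) and ITGB6 (11.8), followed by ITGB5 (8.50) and ITGA5 (3.10). At 24 h ITGA6 was again first, at 67.0 ± 8.03 CPM per kb, followed by ITGB1 at 45.0 ± 2.10. ITGA2 (33.7), ITGB8 (23.8) and ITGAV (19.8) then overlapped in turn, ITGB4 (14.0) stood alone, ITGB6 (9.16) overlapped with ITGA3 (8.72), and ITGB5 (6.88) and ITGA5 (1.90) came last. At 48 h the first 4, ITGB1 (29.2), ITGAV (26.0), ITGA6 (24.6) and ITGB6 (22.2), each overlapped the next, and they were the same 4 genes that led in the control. ITGB8 (11.3) and ITGA2 (10.3) overlapped below them, as did ITGB5 (7.45), ITGB4 (6.65) and ITGA3 (6.23), and ITGA5 was at 0.967 CPM per kb. At 72 h ITGA6 (40.0 ± 2.81) and ITGB1 (38.2 ± 1.79) overlapped, followed by ITGA2 at 31.1 ± 4.19 and ITGAV at 24.0 ± 1.3 CPM per kb. Next to each other, ITGB6, ITGB4 (17.9) and ITGB8 (14.9) overlapped, and so did ITGB5 (7.11) and ITGA3 (6.93), with ITGA5 at 1.72. ITGA5 was last in every group.

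As a share of the 5 α subunits per exon length, ITGAV made up 55.8% ± 2.79 in the control (SD, n = 4) and 14.7% ± 0.366 at 12 h. ITGA2 went from 4.57% ± 0.733 to 35.0% ± 0.770 and ITGA6 from 34.7% ± 1.18 to 42.0% ± 0.484. At 48 h the share of ITGAV was 38.2% ± 1.39 and that of ITGA2 15.1% ± 1.38. None of these shares overlapped between the control and 12 h. Among the β chains of αV other than β1, ITGB6 held 60.0% ± 2.14 in the control and ITGB8 27.9% ± 2.61. At 12 h this order was turned round, with 25.5% ± 1.05 for ITGB6 and 56.1% ± 1.51 for ITGB8, and at 24 h it was 23.2% ± 4.11 and 59.4% ± 6.38. At 48 h ITGB6 was again ahead, with 54.1% ± 1.98 against 27.3% ± 1.86, and at 72 h with 47.6% ± 2.96 against 35.4% ± 2.76. The lead of ITGB6 over ITGB8 rests on the division by length, with 4687 merged exon bases for ITGB6 and 15156 for ITGB8. In CPM, ITGB8 was above ITGB6 in every group, with 129 and 85.8 CPM in the control and 171 and 104 at 48 h. Which transcripts of the 2 genes were expressed was not tested. ITGB4 made up 4.84% ± 1.52 of all 5 β subunits in the control and 18.2% ± 2.36 at 72 h.

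**Figure D3:**
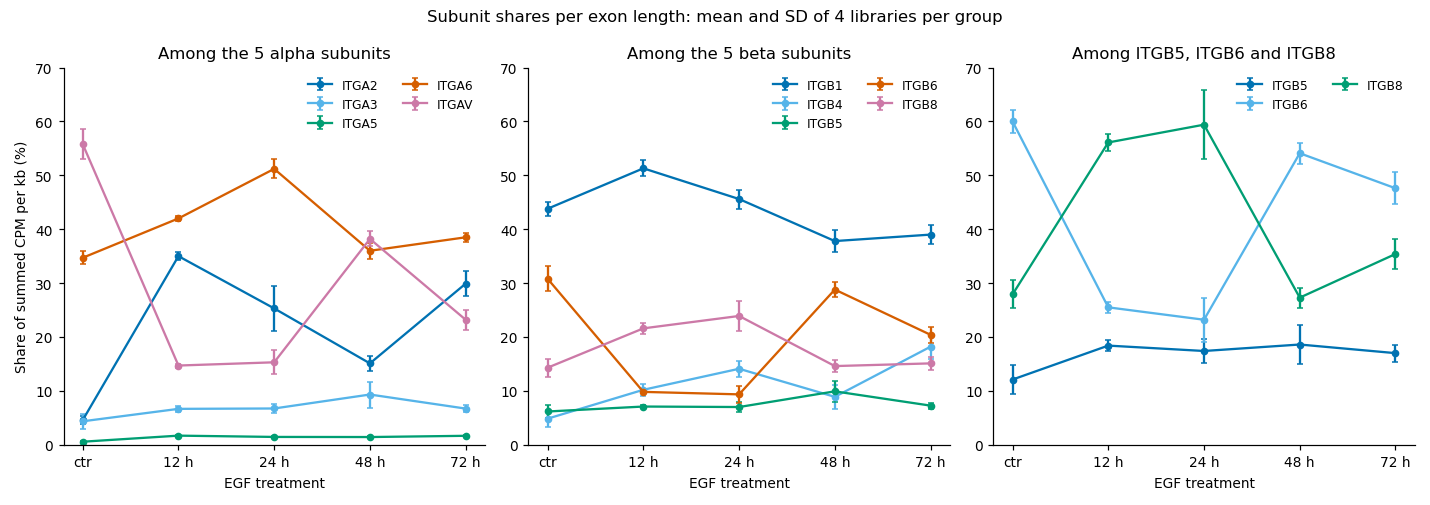
Share of the summed CPM per kb (y axis, %) held by each gene among the 5 α subunits, the 5 β subunits, and ITGB5, ITGB6 and ITGB8 alone, by group (ctr, control), as mean and SD of 4 libraries. ITGB8 exceeds ITGB6 at 12 and 24 h, 56.1% against 25.5% and 59.4% against 23.2%, and ITGB6 exceeds ITGB8 in the other groups. In CPM not divided by length, ITGB8 is above ITGB6 in every group.

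A ratio of 2 genes within a library does not change when all genes of the library are scaled by the same factor. It can change with factors per gene. The α to β ratios of counts were taken for 8 known pairs and tested at each time against the control, 32 tests in all. The groups did not overlap in 30 of them, with a two-sided exact permutation p of 0.0286, the smallest that 4 against 4 libraries allow, and an adjusted p of 0.0305 over the 32 tests. These ratios are of mRNA counts and not of receptors. The tests share the 4 control libraries and several genes, so they are not independent. What share of all gene pairs would separate in this way was not tested. At 12 h, 32.9% of all genes tested were called higher and 36.5% lower.

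The ratio tests with overlapping groups were both of ITGA6 to ITGB4, the chains of the hemidesmosome integrin. Its log2 ratio was 2.53, 2.20, 3.32 and 2.58 in the control and 2.48, 2.54, 2.81 and 2.62 at 12 h, a difference of -0.04 (exact permutation p = 0.857, adjusted p = 0.857). At 24 h it differed by -0.44 (exact permutation p = 0.114, adjusted p = 0.118). It then lay below all controls, by -0.82 at 48 h and by -1.54 at 72 h, where the libraries had 0.89, 1.4, 1.14 and 1.04. Both chains thus went up alike at 12 h, within the spread of the libraries, and ITGB4 exceeded its control level by more than ITGA6 did later. Without control replicate 3, the difference at 12 h was 0.18.

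For the partners of β1, the ratio of ITGA2 to ITGB1 had a log2 value of -3.20, -2.77, -3.24 and -3.08 in the control and 0.42, 0.57, 0.39 and 0.43 at 12 h. The α2 chain thus had fewer counts than β1 in the control and more at 12 h. The later groups had mean log2 ratios of -0.07 (24 h), -1.10 (48 h) and 0.09 (72 h). All 4 libraries of 48 h were again below 0, with more counts of β1, and those of 24 and 72 h lay on both sides of 0. The differences from the control were 3.53, 3.00, 1.97 and 3.16 at 12, 24, 48 and 72 h. ITGA5 to ITGB1 rose by 2.19, 1.93, 1.61 and 2.03 at these times, and ITGA3 to ITGB1 by 1.25, 1.22, 1.36 and 1.12. The ratio of ITGA6 to ITGB1 was the least variable in the control, at -0.40, -0.41, -0.43 and -0.41. It rose by 0.86, 1.10, 0.30 and 0.60 at the 4 times. In counts, these 4 α chains thus gained on β1 at every time. The ratios were not recomputed with the factors per gene. With those factors, the log2 fold change at 48 h was 0.37 for ITGA6 and 0.54 for ITGB1. That order is the reverse of the main fit, with 0.46 and 0.17. The ratio of ITGAV to ITGB1 was not among the pairs tested.

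For αV, the ratio of ITGAV to ITGB6 turned from one side of the control to the other. It was 1.33, 1.58, 1.46 and 1.52 in the control, 2.01, 2.06, 1.94 and 2.01 at 12 h and 1.05, 1.2, 0.89 and 1.05 at 48 h. The differences from the control were 0.53, 0.45, -0.42 and -0.40 at 12, 24, 48 and 72 h, none with overlapping libraries. The ratio of ITGAV to ITGB8 was lower than in the control at each time, by -1.72, -2.02, -0.55 and -1.08, and that of ITGAV to ITGB5 by -1.34, -1.48, -1.20 and -1.25.

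**Figure D4:**
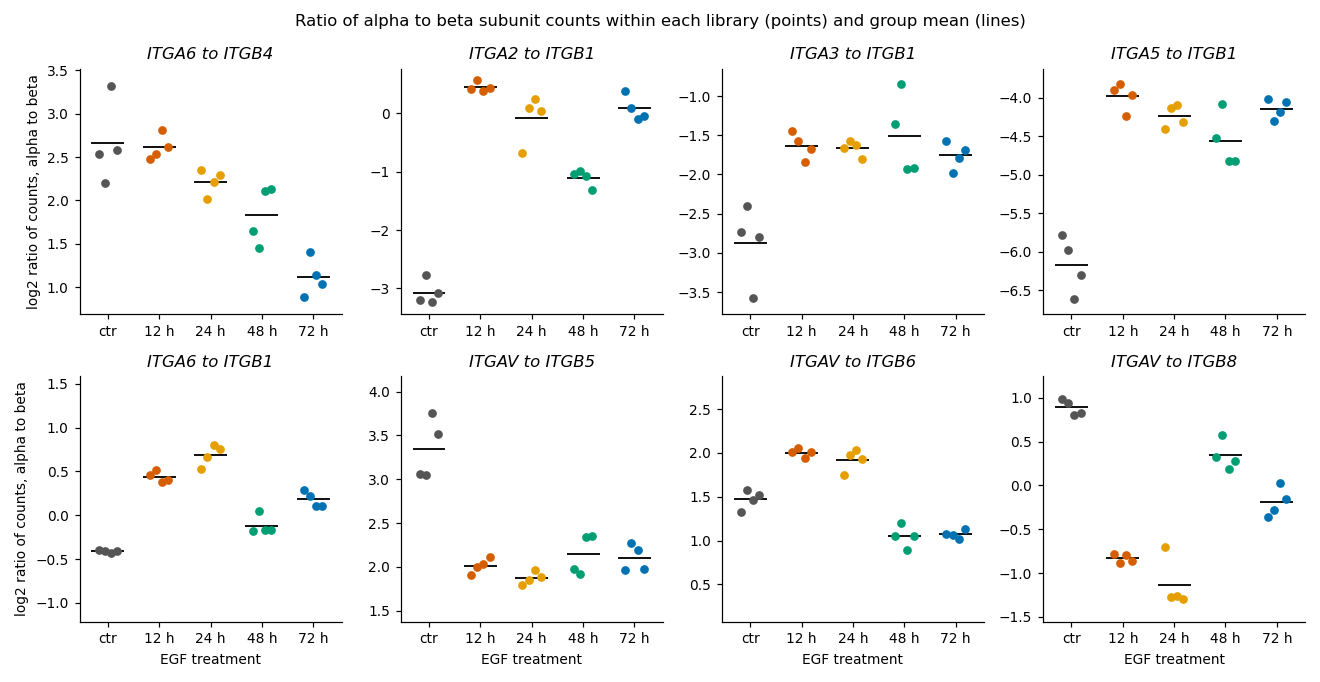
Log2 ratio of α to β subunit counts (y axis) in each library (points) and group mean (lines), by group (ctr, control), for 8 known integrin pairs. ITGA6 to ITGB4 overlaps with the control at 12 and 24 h and reaches 0.89 to 1.4 at 72 h, and ITGAV to ITGB6 lies above the control at 12 and 24 h and below it at 48 and 72 h.

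The other integrin subunits are mostly those of leukocytes, platelets and muscle, and 10 of 16 passed the filter on low counts. Of these, 4 rose and 2 fell at 12 h, 7 and 1 at 24 h, 9 and 1 at 48 h, and 6 and 1 at 72 h, all at low levels but for ITGAE. Over all genes tested, the shares called higher were 32.9%, 29.2%, 24% and 30.6% at these times and those called lower 36.5%, 29.6%, 21.8% and 31%. The 4 of 10 that rose at 12 h are near that share. The median log2 fold change of the list was 0.24, 1.00, 1.02 and 1.05. ITGAX, the αX chain of a complement receptor of myeloid cells, had 4 counts in the 4 control libraries together and 85 to 194 counts per library at 72 h, that is 6.16 ± 1.15 CPM (SD, n = 4) and an edgeR adjusted p of 3.77e-14. ITGA1, the α1 chain of a further collagen receptor, rose from 0.236 ± 0.0481 to 3.38 ± 1.39 CPM at 72 h, a log2 fold change of 3.80 (SE 0.324, edgeR adjusted p = 4.31e-10). ITGAE, the αE chain that binds E-cadherin, had 24.3 CPM in the control and was lower at all 4 times, with log2 fold changes of -0.75, -0.74, -0.24 and -0.74, and is named here after its values were seen. The β partner of ITGAX, ITGB2, had 1.59 CPM in the control and 3.24 at 72 h.

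Of 32 adaptors and activators at the cytoplasmic tails of integrins, 31 were tested. At 12 h, 24 rose and 5 fell, at 24 h 20 and 4, at 48 h 7 and 3, and at 72 h 16 and 6. Over all genes tested, 32.9%, 29.2%, 24% and 30.6% were called higher at these times and 36.5%, 29.6%, 21.8% and 31% lower. The 7 of 31 that rose at 48 h are near that share. TNS4, a tensin that binds the tail of β1, rose from 14.1 ± 2.69 to 298 ± 8.67 CPM at 12 h (SD, n = 4), a log2 fold change of 4.41 (SE 0.278, edgeR adjusted p = 2.66e-10). The median log2 fold change of the list was 0.68 at 12 h and 0.09 at 48 h, with -0.05 and 0.01 over all genes.

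Of 33 ligand genes, 23 were tested. Among them 16 rose and 3 fell at 12 h, 14 and 4 at 24 h, 11 and 1 at 48 h, and 13 and 2 at 72 h, where 32.9%, 29.2%, 24% and 30.6% of all genes were called higher and 36.5%, 29.6%, 21.8% and 31% lower. The list had a median log2 fold change of 0.65, 0.66, 0.25 and 0.34. LAMB3, a chain of laminin-332, the ligand of α6β4 and α3β1, rose from 1.5 ± 0.380 to 87.1 ± 8.42 CPM at 12 h, a log2 fold change of 5.85 (SE 0.138, edgeR adjusted p = 3.94e-20). VTN, the gene of vitronectin, had 0 counts in every library.

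Of 17 membrane partners and hemidesmosome genes, all were tested, and 13 rose and 2 fell at 12 h, 9 and 6 at 24 h, 8 and 5 at 48 h, and 9 and 5 at 72 h. Of all genes, 32.9%, 29.2%, 24% and 30.6% were called higher and 36.5%, 29.6%, 21.8% and 31% lower, and the 6 that fell at 24 h and the 5 at 72 h are near that share. Medians of the log2 fold change were 0.75, 0.38, 0.07 and 0.40. COL17A1, a transmembrane collagen of the hemidesmosome, had 7 counts in the 4 control libraries together and 121 to 204 per library at 72 h, or 8.19 ± 1.14 CPM (SD, n = 4), with an edgeR adjusted p of 5.34e-15. PLAUR, the urokinase receptor, rose from 25.2 ± 2.74 to 332 ± 6.87 CPM at 12 h, a log2 fold change of 3.72 (SE 0.116, edgeR adjusted p = 3.89e-18).

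**Figure D5:**
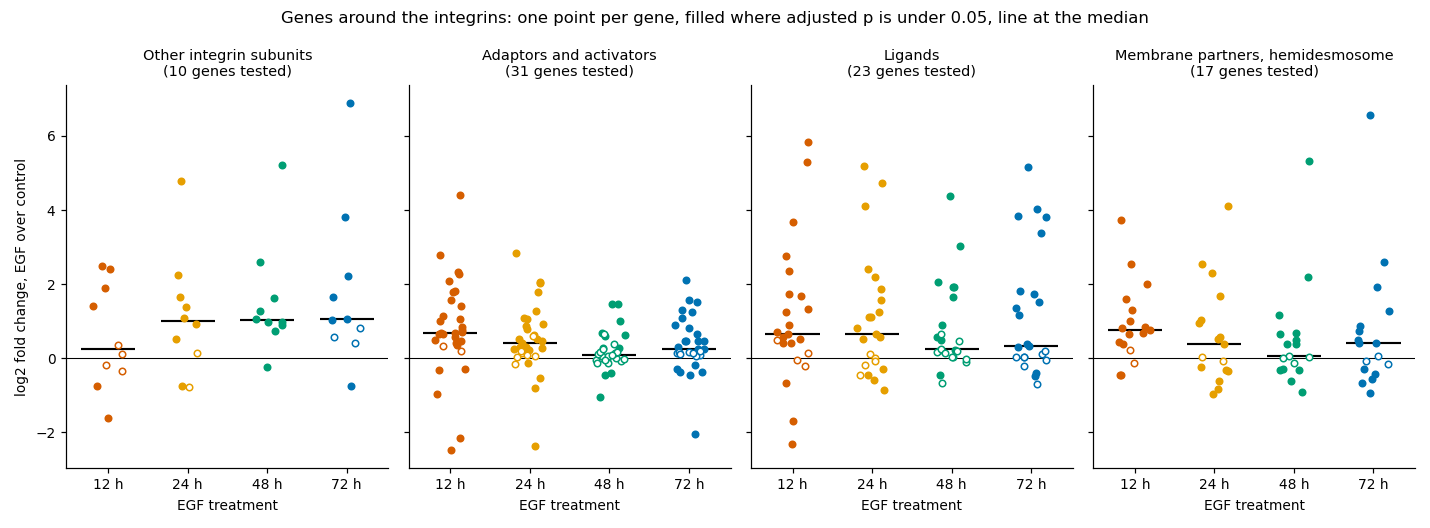
Log2 fold change over the control (y axis) after 12, 24, 48 and 72 h (x axis) for the tested genes of 4 lists, 1 point per gene, filled where the adjusted p was under 0.05, with a line at the median. Medians at 12 h are 0.24 for the other integrin subunits, 0.68 for the adaptors, 0.65 for the ligands and 0.75 for the membrane partners.

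To name genes with a like course, the root mean square difference of the 4 log2 fold changes against the control was taken between each member and every other tested gene with a mean of at least 1 CPM. The nearest genes were DIAPH1 (0.0403) and DGKE (0.0476) for ITGB1, ABHD12 (0.0408) and STX8 (0.0430) for ITGAV, and UPK2 (0.0513) and PCOTH (0.0778) for ITGB6. For ITGB5 they were ACOT11 (0.0845) and AC133644.2 (0.123), for ITGB8 SEC14L1 (0.0900) and S100A10 (0.106), and for ITGA3 AC093423.3 (0.126) and PTK2B (0.154). For ITGA6 they were SH3PXD2A (0.129) and DCBLD2 (0.136), for ITGA5 MALL (0.144) and NPAS2 (0.155), and for ITGB4 SLC5A1 (0.165) and PAG1 (0.171). ITGA2 was farthest from its nearest genes, LINC02721 (0.232) and AP003555.1 (0.270). Among the members themselves, ITGA6 and ITGB8 were closest, at 0.375. Of the genes named, SH3PXD2A is a scaffold of invadopodia and DIAPH1 a formin that assembles actin. PTK2B is a kinase related to focal adhesion kinase and is also on the list of adaptors. The other nearest genes are not described here, and whether the nearest genes share a function was not tested.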

How the data were processed

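The authors sequenced poly(A) libraries of MDA-MB-468 cells (Lexogen Corall mRNA protocol, 75 bp single-end reads) and deposited 10 tables of 60271 genes, all with the same counts, which are raw whole-number counts per gene and library. Beside the counts, the authors deposited normalized values made in DESeq2 through SARTools, treated here as a score, which differ from the counts by factors that vary between genes and libraries. The submitters' processing notes name hg38 and DESeq2. The aligner, counter, strand setting and handling of molecular identifiers are not given in the sources used here, so counts may hold PCR duplicates. The tables' own fold changes and p-values per comparison were not used.

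The counts were analyzed in edgeR 4.0.16 and limma 3.58.1 (R 4.3.3) with filterByExpr (16522 of 33535 genes with at least 1 count), TMM scaling, a mean for each of 5 groups and the robust quasi-likelihood test. Fold changes used a prior count of 0.125 and intervals are at 95%. α to β ratios were taken as log2 of counts + 0.5 and tested by exact permutation. The edgeR step was tested on simulated data. Gene models and exon lengths came from GENCODE 29, where 58036 IDs were found. Groups were taken from the sample titles.

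The 10 subunits and all gene lists were chosen with earlier results of these data known. Named were all members, the 2 genes of each list with the largest change against the control (mean of at least 1 CPM), and the 2 genes nearest to each member in course, of which some are not reported here. Replicates of a group differed by 3.54 to 58.1 times the sampling noise over 30 pairs, and p-values measure the spread between these cultures of 1 line. Alternatives were other scalings, filters and prior counts, a fit of only the 8 libraries compared, the DESeq2 1.42.0 Wald test, glmTreat against 1.5-fold, a replicate block, a ratio pseudocount of 5, each library left out, and, chosen with earlier results known, factors per gene that turn counts into the normalized values (11956 genes, 20 or more counts in each library).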

Additional observations from a re-analysis of the deposited data

Results flagged for a closer look

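In 90 groups of 4 libraries (levels and ratios of the members), 6 had 1 library far from the other three by Dixon's criterion, a rate near the 1 in 20 that chance gives. For levels, ITGA6 and ITGB1 in control replicate 3 (134 and 181 CPM) were above the other controls, and ITGA6 in EGF 12 h replicate 1 (487 CPM) and ITGB4 in EGF 24 h replicate 1 (73.1 CPM) were below the others of their groups. For log2 ratios, ITGA6 to ITGB1 in EGF 48 h replicate 2 (0.05) and ITGAV to ITGB8 in EGF 24 h replicate 1 (-0.70) were above the others.

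Many genes changed from one EGF group to the following one. Out of 16522 genes tested, edgeR called 8879 on the step to 24 h, 8292 on the step to 48 h and 5906 on the step to 72 h. Beside this background, the effect of EGF differed between successive times in 21 of 30 direct edgeR tests over the 10 members. Between 12 and 24 h these were ITGA2 (-0.93), ITGA3 (-0.49), ITGA5 (-0.71), ITGAV (-0.45), ITGB1 (-0.46), ITGB5 (-0.31) and ITGB6 (-0.36), as log2 fold changes of the later over the earlier time. Between 24 and 48 h they were ITGA2 (-1.71), ITGA3 (-0.49), ITGA5 (-0.97), ITGA6 (-1.44), ITGAV (0.40), ITGB1 (-0.62), ITGB4 (-1.07), ITGB6 (1.28) and ITGB8 (-1.08). Between 48 and 72 h they were ITGA2 (1.59), ITGA5 (0.83), ITGA6 (0.70), ITGB1 (0.39) and ITGB4 (1.43).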

How the results depend on the processing

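Of 133 recomputed counts of members called, 131 stayed within 1.5 times the reported count. The others came with glmTreat against 1.5-fold, which called 1 member from 12 to 24 h and 2 from 48 to 72 h. Of 1330 recomputed log2 fold changes, 1262 kept their direction and side of the threshold, 35 were no longer called, 30 became called and 3 changed sign: ITGB8 between 12 and 24 h (0.01 with library size only, 0.02 with factors per gene) and ITGB5 between 48 and 72 h (0.01 with factors per gene). Of those no longer called, 19 came with glmTreat. Of 320 recomputed ratios, none of them with the factors per gene, 319 kept their direction. The exception, ITGA6 to ITGB4 at 12 h, ranged from -0.20 to 0.18 when 1 library was left out. Only the 32 ratios with a pseudocount of 5 were also compared with the threshold, and all 32 kept their side of it. With a replicate block or 1 library left out, the permutation p cannot reach the threshold, so only the size of the ratio was compared there. Scaling by library size only moved the median log2 fold change of all genes to -0.337 at 12 h, -0.15 at 24 h and 0.182, 0.174 and -0.1 from each time to the next, and upper quartiles moved it to -0.216 at 12 h and 0.156 between 12 and 24 h. The cause of these shifts was not tested.

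Over 40 pairs of libraries with the same replicate number, deviations from the group means correlated with r between -0.239 and 0.348 (median 0.0092). Over 120 pairs with other numbers, r was between -0.322 and 0.259 (median -0.00422). It was over 0.1 in 5 of the 40 and 10 of the 120 pairs. Of 20 libraries, 8 correlated best with their own number. These values do not decide whether replicate numbers pair the libraries. With a replicate block, 8 members were called at 48 h in place of 7, 8 from 12 to 24 h in place of 7 and 6 from 48 to 72 h in place of 5, through ITGB6, ITGA6 and ITGB8, with no change in the other counts. Depth limits ITGA5 most, with 39 counts in its lowest library.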
